A study of Mus musculus with 2 samples.

Results

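POU5F1, also called OCT4, was mapped by chromatin immunoprecipitation and sequencing (ChIP-seq) in E14TG2a.4 cells, and the peaks described here are those that lay between genes but not far from a promoter. A peak of the deposited whole-series list on mm9 was taken when its centre fell in no annotated gene body, lay more than 1 kb from every annotated transcript start and lay at most 100 kb from the start of a protein-coding transcript (GENCODE M1). The choice used position only, never signal. It was met by 2039 of 5515 peaks, or 37.0% (95% interval 35.7 to 38.3%). Of the rest, 2035 lay in gene bodies, 860 lay between genes but farther than 100 kb from a protein-coding start, and 581 lay within 1 kb of a start.

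E14TG2a.4 is a male embryonic stem cell line of mouse strain 129/Ola, for which the labels give an embryonic age of 3.5 days and no genetic change or treatment. There was 1 group, immunoprecipitated with an antibody against POU5F1, with 2 biological replicates that carry different biosample identifiers but come from the same line and donor. The samples used hold no untreated, knockout or other contrast group, and the possible control that the labels point to was not analysed here. Peak lists hold no expression values, so the identity of the cells could not be checked from marker genes.

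POU5F1 is a transcription factor of the POU family that is required to keep embryonic stem cells undifferentiated. Its bipartite DNA-binding domain reads the octamer, and it often binds beside SOX2 on a composite of a SOX site and an octamer. It can also bind as a dimer to MORE, a palindrome of octamer parts. Much of its binding is known to lie in distal enhancers, DNA elements that act on promoters over a distance.

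The sequences that follow show such elements at the strongest of these intergenic peaks. They were read from the mm9 assembly (NCBIM37) with 12 flanking bases on each side, in the orientation of the match, and the capitals mark the match. The first set is the composite element with at most 2 mismatches within 100 bp of the peak centre. It is shown for 7 of the strongest peaks that held it and for Dppa3, the next such peak beside a pluripotency gene.
Prr5, chr15:84452642-84452680, minus strand, 1 mismatch: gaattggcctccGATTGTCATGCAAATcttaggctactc
Msx3, chr7:147246990-147247028, plus strand, 2 mismatches: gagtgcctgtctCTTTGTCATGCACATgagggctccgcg
Slain2, chr5:73293749-73293787, plus strand, 2 mismatches: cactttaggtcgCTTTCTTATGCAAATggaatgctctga
Klf13, chr7:71102121-71102159, plus strand, 2 mismatches: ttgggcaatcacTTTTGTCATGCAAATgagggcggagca
Gm6871, chr7:48837584-48837622, plus strand, 2 mismatches: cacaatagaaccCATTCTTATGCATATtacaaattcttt
H2afb1, chr2:17910914-17910952, plus strand, 2 mismatches: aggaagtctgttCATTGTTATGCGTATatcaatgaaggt
Utf1, chr7:147131568-147131606, minus strand, 2 mismatches: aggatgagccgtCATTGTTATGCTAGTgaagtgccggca
Dppa3, chr6:122574687-122574725, minus strand, 2 mismatches: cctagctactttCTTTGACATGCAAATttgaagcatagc
The right part of the match is the octamer, and it was exact at Prr5, Slain2, Klf13 and Dppa3. Each name is that of the gene with the nearest protein-coding start, which need not be a gene that the site acts on.

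MORE was searched with at most 1 mismatch to the palindrome that the Ric8b peak in this second set holds without a mismatch. It is shown with capitals in the same way at 8 of the strongest peaks that held it.
Lmtk2, chr5:144844548-144844583, plus strand, 1 mismatch: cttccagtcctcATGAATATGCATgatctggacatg
Prr5, chr15:84452606-84452641, plus strand, 1 mismatch: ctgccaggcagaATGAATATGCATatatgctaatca
Traf3, chr12:112381397-112381432, plus strand, 1 mismatch: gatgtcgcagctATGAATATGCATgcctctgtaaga
Ric8b, chr10:84376087-84376122, plus strand, 0 mismatches: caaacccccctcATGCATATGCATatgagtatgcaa
Tspan11, chr6:127789746-127789781, plus strand, 1 mismatch: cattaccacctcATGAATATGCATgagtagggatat
Oit1, chr14:9236001-9236036, plus strand, 1 mismatch: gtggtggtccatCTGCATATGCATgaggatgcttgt
Bpifb9a, chr2:154096998-154097033, plus strand, 1 mismatch: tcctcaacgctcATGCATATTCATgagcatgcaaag
Casz1, chr4:148113108-148113143, plus strand, 1 mismatch: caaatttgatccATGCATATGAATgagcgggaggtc
The same variant string was present at Lmtk2, Prr5, Traf3 and Tspan11, and its reverse complement at Bpifb9a. All of the 8 matches but that at Ric8b had 1 mismatch. The Prr5 peak held both elements, with the composite centred 27 bp and MORE 10 bp from the peak centre on opposite sides.

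The peaks upstream of Pou5f1 and Lefty1 were among the strongest and held no element under these limits, so their whole windows of 201 bases around the centre are shown. Capitals mark the best match to the composite element, which had 3 mismatches in each.
Pou5f1, chr17:35640893-35641093, minus strand, 3 mismatches: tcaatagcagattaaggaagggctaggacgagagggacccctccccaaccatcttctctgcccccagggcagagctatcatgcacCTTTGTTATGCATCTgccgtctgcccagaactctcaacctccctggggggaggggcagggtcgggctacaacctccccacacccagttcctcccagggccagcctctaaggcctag
Lefty1, chr1:182863918-182864118, minus strand, 3 mismatches: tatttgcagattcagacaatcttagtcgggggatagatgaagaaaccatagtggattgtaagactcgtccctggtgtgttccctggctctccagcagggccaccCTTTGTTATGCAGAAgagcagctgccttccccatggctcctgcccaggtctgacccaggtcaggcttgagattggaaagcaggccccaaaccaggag
Both best matches began with the same letters and differed at their ends. A match is a description and not a site of binding, and no match says only that these letters are not in the window.

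The intergenic peaks lay at a median of 21.8 kb from the nearest protein-coding start (95% interval 20.4 to 23.6 kb, quartiles 8.82 and 44.6 kb). They were upstream of that gene in 1396 cases, or 68.5% (66.4 to 70.5%), and on the downstream side of its start in 643. All intervals in the text are 95% Clopper-Pearson intervals for shares and order-statistic intervals for medians, and they cover counting error only, since peaks of 1 list are not replicates. The rule itself limits where a peak can lie, so the same rule was applied to positions every 500 bp of the assembled genome. Of those positions, 28.6% met it, against 37.0% of peaks. The intergenic peaks numbered 2.79 per Mb of such sequence. Gene bodies held 2.09 peaks per Mb, intergenic sequence beyond 100 kb held 1.16, and sequence within 1 kb of a start held 5.48.

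Within the rule, peaks were crowded toward the starts. From 1 to 5 kb there were 281 peaks, or 13.8% of them, where 10.2% of the positions meeting the rule lay. From 50 to 100 kb there were 428, or 21.0%, against 28.5% of positions. The bins between held 278 peaks at 5 to 10 kb, 546 at 10 to 25 kb and 506 at 25 to 50 kb, and the last of these had 24.8% of both peaks and positions. The density thus ran from 3.75 peaks per Mb in the nearest bin to 2.05 in the farthest. The upstream share was 82.6% at 1 to 5 kb, 73.4% at 5 to 10 kb, 69.0% at 10 to 25 kb, 62.5% at 25 to 50 kb and 62.4% at 50 to 100 kb. The rule excludes gene bodies, and of the positions that met it 63.8% were themselves upstream. In the same order of bins, 80.2%, 70.7%, 65.1%, 60.4% and 56.9% of these positions were upstream. The upstream share of positions thus also fell with distance, and it lay within the 95% interval of the share of peaks in every bin but the last (57.6 to 67.0%). The share of peaks was the higher in each bin. Over all bins together 68.5% of peaks were upstream (66.4 to 70.5%), an interval above the 63.8% of positions.

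**Figure D1:**
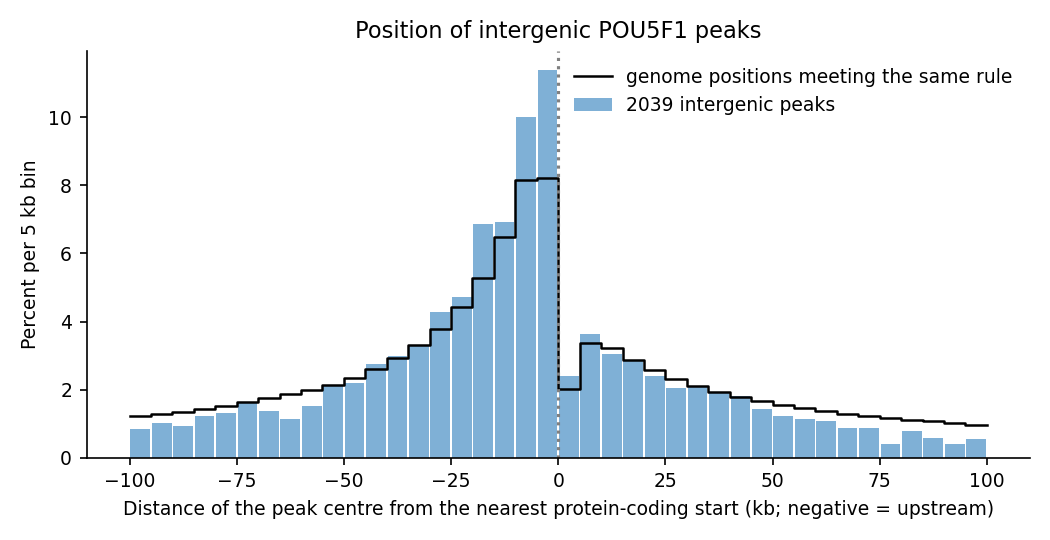
Signed distance from the centre of each of the 2039 intergenic peaks to the nearest protein-coding start (horizontal axis, kb, negative upstream), as percent of peaks per 5 kb bin (bars), with the percent of genome positions meeting the same rule (line). The bars stand above the line in the bin from 5 kb upstream to the start, at 11.4% against 8.22%, and below it beyond about 50 kb on both sides.

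The limits of the rule cut through a continuous range. Just inside the 1 kb limit lay peaks at 1002, 1020 and 1026 bp from an annotated start, nearest to Caprin1, Lipg and Tmem220 with signals of 4.11, 4.41 and 8.22. Just outside lay those near Sgk1, Fgfr1 and Exoc6b at 955, 950 and 949 bp, with signals of 8.52, 5.58 and 5.03. At the other limit, the last peaks taken were 99.6, 99.4 and 99.4 kb from Gm8882, Cacna2d1 and Gm11084 with signals of 7.05, 5.13 and 4.7. The first left out were 100.01, 100.24 and 100.57 kb from Tcf4, Vmn2r79 and Cnr1 with signals of 6.17, 6.17 and 7.64.

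The gene with the nearest start was often not the only candidate neighbour. Another protein-coding start lay within 100 kb in 1372 cases (67.3%), and the start of the second gene was at most 1.5 times as far in 450 (22.1%). In 547 cases (26.8%) a start of another annotated transcript, such as a noncoding RNA, was nearer than the protein-coding one. By the strands of the flanking genes, 1128 peaks lay between genes that read the same way, 585 between genes that read away from each other, 316 between genes that read toward each other and 10 at a chromosome end. The median lengths of the first 3 kinds of interval were 90.2, 102 and 74.6 kb.

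The deposited signal of the intergenic peaks had a median of 5.29 (95% interval 5.29 to 5.58), quartiles of 4.7 and 6.75 and a range from 2.51 to 29.07. No source used here gives the authors' scaling, so signals are compared only within 1 list. The values are stepped, and 146 peaks had exactly 5.29 and 109 exactly 5.58. The medians of the other position classes, 5.58 in each, are thus 1 frequent step away. Signals of at least 10 were found at 141 intergenic peaks, or 6.92% (5.85 to 8.10%). The shares were 7.27% in gene bodies, 7.21% beyond 100 kb and 6.37% within 1 kb of a start, all inside that interval.

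Median signal changed little with distance. The bin medians were 5.58, 5.29, 5.58, 5.29 and 5.29 from the nearest to the farthest. Signals of at least 10 made up 8.90% of peaks at 1 to 5 kb (5.84 to 12.9%) and 4.91% at 50 to 100 kb (3.06 to 7.40%), intervals that overlap. Across the 2039 peaks, which share their libraries, Spearman's rho of distance and signal was -0.05. Upstream peaks had a median of 5.29 and downstream peaks of 5.33. Signal followed peak width more closely, with a Spearman's rho of 0.57 over the same peaks, and the median width was 365 bp.

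The replicate lists differed in length, with 1330 peaks for replicate 1 and 6324 for replicate 2, and this bears on every statement about replication. Without read counts, library depth is unknown. Intergenic peaks by the same rule made up 37.1% of the replicate 1 list and 36.6% of the replicate 2 list. Of the 2039 peaks, 441 overlapped a peak in both replicate lists by at least 1 bp, or 21.6% (19.9 to 23.5%), against 21.9% of all 5515. A further 1293 (63.4%) overlapped the replicate 2 list alone, 26 (1.28%) the replicate 1 list alone and 279 (13.7%) no peak of either. These last are present in the whole-series list alone, and no source used here says how that list combines the replicates.

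Peaks found in both lists were the stronger ones. Their median whole-series signal was 8.52, against 5.29 for peaks in the replicate 2 list only, 5.29 for those in replicate 1 only and 4.41 for those in neither. The median deposited −log10 p-values in the same order were 30.5, 9.70, 7.02 and 6.20. Among the 408 peaks of the highest signal quintile, 76.5% were in both lists, and among those of the lowest, 1.23%. The 3 lists come from the same libraries and that of replicate 1 is short, so this order is no independent support for the stronger peaks. Over the 441 shared peaks, the signals in the replicate lists had a Spearman's rho of 0.63 and a Pearson's r on the log2 scale of 0.73. These values describe peaks already selected for presence in both lists, and the peaks share the same libraries. The whole-series signal ran closer to that of replicate 2 (Spearman's rho 0.95) than to that of replicate 1 (0.72) over the same peaks.

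**Figure D2:**
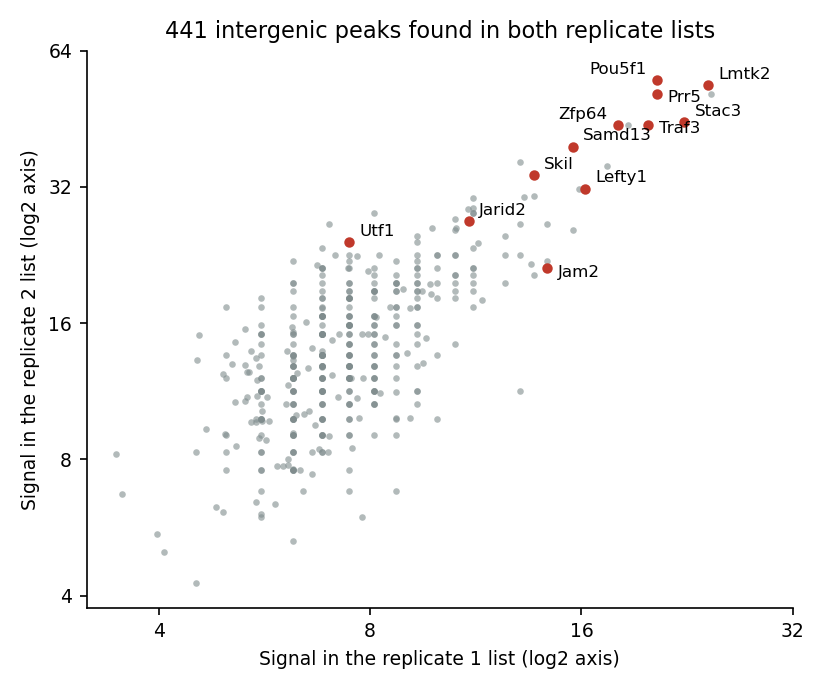
Deposited signal in the replicate 1 list (horizontal, log2 axis) against that in the replicate 2 list (vertical, log2 axis) for the 441 intergenic peaks found in both, with peaks named by nearest gene in red. Points rise together from lower left to upper right, Pou5f1, Lmtk2, Prr5 and Stac3 stand at the top right, and the vertical stripes are the stepped values of the replicate 1 list.

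The strongest intergenic peak lay 16.7 kb upstream of Lmtk2, which encodes a transmembrane kinase (chr5:144844283-144844879). Its signal was 29.07 in the whole-series list, 24.2 in the replicate 1 list and 53.71 in the replicate 2 list. It was the peak with the first MORE sequence shown above.

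The second was upstream of Pou5f1 itself, 1989 bp from its start (chr17:35640669-35641316). The signal there was 27.9 in the whole-series list, 20.53 in that of replicate 1 and 55.17 in that of replicate 2. It was the highest of all intergenic values in the replicate 2 list. The next gene, Tcf19, had its start 12.5 kb away.

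The third lay 19.9 kb downstream of the start of Grp, the gene of gastrin-releasing peptide, on chromosome 18. Its signals were 27.6, 24.47 and 51.39 in the whole-series, replicate 1 and replicate 2 lists. It held an octamer and MORE. The fourth was 47.4 kb upstream of Prr5, a subunit of the kinase complex mTORC2 (chr15:84452287-84452980), at 26.72, 20.53 and 51.39 in the same order of lists. It was the only one of all 2039 peaks to hold the composite and MORE elements together.

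The fifth lay 2212 bp downstream of the start of Stac3, a gene of muscle excitation-contraction coupling (chr10:126946203-126946782). Its signals were 24.96, 22.4 and 44.59 in the whole-series, replicate 1 and replicate 2 lists, and it held an octamer. The peak 23.2 kb upstream of Traf3, an adaptor of tumour necrosis factor receptors, had a whole-series signal of 23.49, with 19.91 and 43.84 in the replicate lists (chr12:112381115-112381700).

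Also among the first 10 were peaks 3786 bp upstream of Zfp64, a zinc finger gene, 8071 bp upstream of Samd13 and 12021 bp upstream of Msx3, a homeobox gene of the neural tube. Their whole-series signals were 22.91, 22.61 and 20.26. In the replicate 1 list they had 18.04, 15.55 and 17.42, and in the replicate 2 list 43.84, 39.3 and 35.52. The order of the 9 peaks described thus differed between the replicates, while all of them were high in both.

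Lefty1, an inhibitor of Nodal signalling, followed at 19.38, with 16.18 and 31.74 in the replicate lists, 1135 bp upstream of the start (chr1:182863704-182864331). Slain2, a microtubule plus-end factor, had a peak of 19.09, with 15.86 and 31.74 in the replicate lists, 11.8 kb upstream. Skil, which encodes the SMAD-binding repressor SnoN, and Cit, the citron kinase of cell division, each had one of 18.21. The replicate lists gave 13.69 and 34.01 for the Skil peak and 13.06 and 36.28 for the Cit peak. The remaining peaks of the first 25 had whole-series signals between 15.56 and 17.33. They were nearest to Ric8b, Fam43a, Tspan11, Oit1, Jarid2, Klf13, Ank, Cdk15, Zfp428, Gm6871 and Tmem132d.

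All 25 of these peaks were found in both replicate lists, and 20 of them lay upstream of the nearest gene. The composite element was present in 6, the octamer in 8 and MORE in 7, and 15 held at least 1 of these or PORE, a palindromic octamer arrangement. Among the 100 strongest peaks, 65 were upstream, 99 were in both lists, 22 held the composite element and 14 held MORE.

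Over all intergenic peaks, the composite element with at most 2 mismatches was found within 100 bp of the centre, on either strand, in 177, or 8.68% (7.49 to 9.99%), against 9.3% of all 5515 peaks. Windows of the same length 2 kb from these peaks held it in 3 cases (0.147%). The exact octamer ATGCAAAT was found in 260, or 12.8% (11.3 to 14.3%), against 13.4% of all peaks and 1.18% of the windows 2 kb away. MORE was found in 47, or 2.31% (1.70 to 3.05%), against 2.38% of all peaks and 0.0490% of the windows 2 kb away. An octamer can be part of a composite match, and 57 of the 177 composite peaks also held the exact octamer. Counting these 3 and PORE, 433 peaks (21.2%) held at least 1 element and 1606 held none under these rules.

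The shares in the other position classes are given beside these, with no test made. The composite element was found in 9.58% of gene body peaks (8.34 to 10.9%), in 11.5% of intergenic peaks beyond 100 kb (9.46 to 13.8%) and in 7.23% of peaks within 1 kb of a start (5.26 to 9.65%). Each of these intervals overlaps that of the 2039 peaks, which does not show that the shares are equal. Matches lay near the centre, at a median of 22 bp for the composite, 26.5 bp for the octamer and 20.5 bp for MORE. A SOX site alone or within a composite was found in 9.91% of intergenic peaks against 6.28% of the windows 2 kb away. The SOX share was 12.6% in gene bodies, 13.1% beyond 100 kb and 8.43% within 1 kb of a start. Sites of KLF, ESRRB and STAT factors were found in 2.11%, 1.62% and 1.13% of intergenic peaks. The windows 2 kb away held them in 1.23%, 0.785% and 0.589%, with overlapping intervals for each site. The GATA site AGATAAG was found in 2.21% of intergenic peaks against 2.26% of those windows.

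The composite, octamer and MORE elements were most frequent in the highest signal quintile, by different amounts. From the lowest to the highest signal quintile the composite share ran from 5.64% to 14.5%, or from 23 to 59 peaks. MORE ran from 0.735% to 6.62%, or from 3 to 27 peaks, and the quintiles between held 6, 7 and 4. The octamer share was 11.8%, 9.31%, 13.3%, 14.0% and 15.4% from the lowest to the highest quintile, with overlapping intervals throughout. Peaks with MORE had a median signal of 8.52 against 5.29 without, those with the composite element 5.87 against 5.29, and those with the octamer 5.58 against 5.29. Presence in both replicate lists was 44.7% with MORE (30.2 to 59.9%) against 21.1% without, and 35.0% with the composite element (28.0 to 42.5%) against 20.4% without. Signal, width and replicate support moved together in these peaks, and their separate parts in these shares were not tested.

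**Figure D3:**
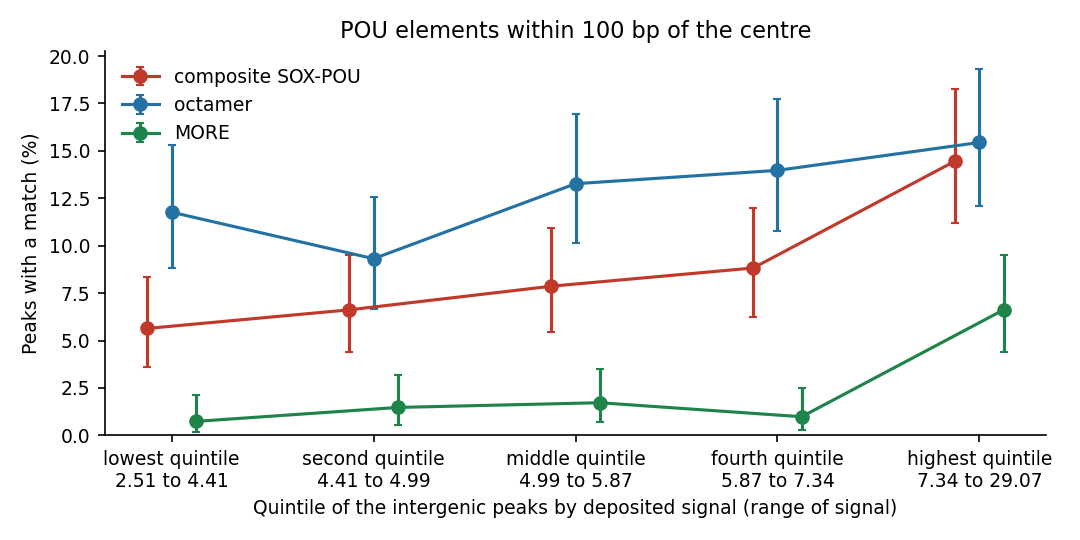
Percent of intergenic peaks with a composite, octamer or MORE match within 100 bp of the centre (vertical), by quintile of deposited signal (horizontal, with the signal range of each), with 95% Clopper-Pearson intervals. The composite and MORE shares are highest in the last quintile, at 14.5% and 6.62%, and the octamer intervals overlap across all quintiles. Equal signals at a quintile limit were ordered by the deposited −log10 p-value.

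In the 47 MORE peaks 1 variant was the most frequent match. The string ATGAATATGCAT or its reverse complement was the match in 22 of them and the perfect palindrome in 9. The first string was present in 22 of the 2039 intergenic windows (1.08%), in 34 of the 3476 other peaks (0.978%) and in 0 of the windows 2 kb away from either. The 22 peaks had a median signal of 9.84 and a range from 3.82 to 29.07. Of the 47 peaks, 40 lay upstream of the nearest gene, or 85.1% (71.7 to 93.8%), against 68.1% of the peaks without MORE. The composite peaks were upstream in 68.4% of cases.

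The 2039 peaks were assigned to 1689 genes by nearest start, which is 7.6% of the 22238 protein-coding symbols. The number rests on how many peaks a list holds. It was 462 (2.08%) with the replicate 1 list alone and 931 (4.19%) when a −log10 p of 10 or more was required, and the shares of the gene lists given next were not recomputed there. Of these genes, 1423 had 1 such peak, 227 had 2, 28 had 3 and 11 had 4 or more. For 1323 genes these intergenic peaks were the only peaks of the series nearest to them, and 70 were also nearest to a peak within 1 kb of a start. Predicted genes with Gm or Rik names made up 251.

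Of 25 pluripotency regulators, 14 were nearest to an intergenic peak, with 27 peaks in all (56%, 34.9 to 75.6%), beside 7.6% of all protein-coding symbols. Counting peaks of every position class, 22 of the 25 were nearest to a peak, beside 3881 of all 22238 protein-coding symbols. This list and those that follow were assembled with earlier results of these data known, so their shares describe the peaks and are no independent evidence. After Pou5f1, the strongest was a peak 40.5 kb downstream of the start of Sall1, a zinc finger repressor, at 14.49 (chr8:91527239-91527962). The replicate lists gave 13.58 and 21.6 there. Sall1 had 4 more intergenic peaks, at 7.05, 5.87, 4.7 and 4.41, spread from 98.3 kb downstream to 29.0 kb upstream of its start. None of those 4 was in the replicate 1 list.

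The peak 1843 bp downstream of the start of Utf1, a chromatin protein of undifferentiated cells, had a signal of 13.8, with 7.47 and 24.19 in the replicate lists (chr7:147131330-147131866). It lay beyond the end of that short gene and held the composite sequence shown above. The peak 1799 bp upstream of Dppa3, which protects methylation in the early embryo, had 12.04, with 9.33 and 17.38 in the replicate lists (chr6:122574310-122574948). It held a composite match as well. These were the only composite matches among the 27 peaks, while 6 of the 27 held any POU element.

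Dppa5a, an RNA-binding protein gene of stem cells, had a peak of 10.28 located 3184 bp downstream of its start and one of 4.99 upstream. The first was in both replicate lists, at 6.84 and 16.63. Tcfcp2l1, a transcription factor of naive pluripotency, had one of 7.34 located 2361 bp upstream, with 6.84 and 12.09 in the replicate lists. Klf2, Klf4 and Klf5 encode related zinc finger factors of the naive state. Their strongest intergenic peaks had signals of 6.46, 5.58 and 6.17, at 15.4 kb downstream, 54.2 kb downstream and 31.8 kb upstream of the starts. Klf5 had 4 such peaks and Klf2 had 2. Of the strongest ones, that of Klf2 was found in both replicate lists and those of Klf4 and Klf5 in the replicate 2 list only.

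The strongest intergenic peaks of the remaining regulators had signals between 4.41 and 5.91. Nr0b1, an orphan nuclear receptor gene on the X chromosome, had 1 of 5.91 located 10.6 kb upstream. Mycn, a proto-oncogene, had 3 with signals of 5.58, 5.58 and 5.56. Its relative Myc had 2, of 5.58 and 3.56, neither of which was in a replicate list. Prdm14, a repressor of differentiation genes, had 2 downstream, of 4.82 and 4.7, and Rif1, a replication timing factor, had 1 of 4.41 located 1459 bp upstream. Of the 27 peaks, 9 overlapped both replicate lists, 14 the second alone, 1 the first alone and 3 no peak of either.

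Genes of the other lists are given by their strongest intergenic peaks, and their counts cover intergenic peaks only unless every position class is named. Of 29 further genes enriched in embryonic stem cells, 10 were nearest to a peak. After Lefty1 came Jam2, a junctional adhesion molecule, at 14.1 (14.31 and 21.16 in the replicate lists) and Lefty2, the neighbour and paralog of Lefty1, at 11.16 (6.22 and 21.92). The Jam2 peak lay 4750 bp and the Lefty2 peak 4266 bp upstream. In the Nodal, TGF-beta and BMP pathway, 7 of 23 genes were nearest to a peak. The inhibitor Skil led, then Id3, a target of BMP signalling, at 11.16 and 1908 bp downstream, and the ligand gene Nodal at 9.98 and 1905 bp upstream. The Nodal peak had 7.47 and 16.63 in the replicate lists. Lefty1, Lefty2 and Nodal encode 2 inhibitors and the ligand of 1 pathway, and all had a peak upstream within 5 kb that was in both replicate lists. Over the whole pathway list, 6 of 8 peaks were upstream and 4 of 8 were in both replicate lists. Over the list of further embryonic stem cell genes, these were 11 of 14 and 7 of 14.

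Signalling genes of the other pathways followed. For LIF, the cytokine that maintains these cells in culture, 4 of 16 genes were nearest to a peak. The shared receptor subunit gene Il6st had 13.22 at 12.4 kb upstream, with 14.31 and 21.92 in the replicate lists, and the specific subunit gene Lifr had 7.81 at 13.7 kb upstream. Socs2, a feedback inhibitor, had 7.34 at 39.2 kb upstream. The Lifr and Socs2 peaks were in the replicate 2 list only. Of 20 FGF and ERK genes, 5 were nearest to a peak, and the 3 strongest were negative regulators. Spred2 had 12.63 at 74.3 kb upstream, Spred1 had 9.4 at 1306 bp upstream and the phosphatase gene Dusp4 had 8.52 at 74.4 kb upstream. All 3 peaks were in both replicate lists. Of 20 Wnt genes, 7 were nearest to a peak, led by the transcription factor gene Tcf7 at 10.87, the receptor gene Fzd7 at 7.05 and the ligand gene Wnt8a at 6.75. The Tcf7 peak held a composite match and was the only one of the 8 Wnt peaks in both replicate lists.

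Of 24 Polycomb genes, whose products repress developmental genes through chromatin, 9 were nearest to 15 intergenic peaks. Jarid2, a cofactor of the repressive complex PRC2, had 16.44 at 23.8 kb upstream, with 11.05 and 26.91 in the replicate lists (chr13:44800695-44801383). Bmi1, of the complex PRC1, had 10.57 at 5983 bp downstream, and Eed, a core subunit of PRC2, had 7.76 at 26.3 kb upstream as the strongest of 4. Each of these 3 peaks was in both replicate lists. In the DNA methylation list, 1 of 13 genes was nearest to an intergenic peak, the methyltransferase gene Dnmt3b at 6.75 and 6208 bp upstream. Counting peaks of every position class, 4 of the 13 were.

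Genes of later stages and lineages come last. Of 16 primed epiblast genes, 10 were nearest to a peak (62.5%, 35.4 to 84.8%), led by Nodal, the growth factor gene Fgf15 at 9.1 and the homeobox gene Otx2 at 7.93. The Fgf15 peak lay 7728 bp upstream and held a composite match, and the Otx2 peak lay 86.6 kb upstream. Of 20 mesoderm and primitive streak genes, 7 were nearest to a peak, led by the myogenic factor gene Myf5 at 10.57, then Mesp2 at 6.75 and Eomes at 6.57. The last is also a gene of the trophectoderm and primed epiblast lists. Of 24 neuroectoderm genes, 7 were nearest to a peak, led by the homeobox gene Six3 at 7.34, then Olig3 at 6.75 and Neurog1 at 6.46.

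In the endoderm list, 3 of 18 genes were nearest to a peak, namely Hhex at 11.75, Foxa1 at 4.99 and Sox7 at 4.41. The Hhex peak lay 32.6 kb downstream, held MORE and an octamer and was in both replicate lists. Of 17 trophectoderm genes only Eomes was nearest to an intergenic peak, and of 18 fibroblast genes, which feeder cells would express, only Col3a1 at 5.87. Of 24 ribosomal and housekeeping genes 4 were nearest to a peak, led by Rps19 at 8.59, Actb at 7.05 and Hprt at 4.99. Of 30 genes of terminal somatic cells 0 were, which allows a share of up to 11.6%. Counting peaks of every position class, 7 of the 17 trophectoderm genes and 5 of the 18 endoderm genes were nearest to a peak. So were 1 of the 18 fibroblast genes, 5 of the 24 ribosomal and housekeeping genes and 2 of the 30 genes of terminal somatic cells. The side of the peaks differed between the lists, beside 68.5% upstream over all 2039 and with no test made. Upstream were 13 of the 27 peaks of pluripotency regulators, 11 of 14 of the further embryonic stem cell genes, 11 of 12 of primed epiblast genes and 14 of 15 of Polycomb genes. In the pathway lists they were 6 of 8 for Nodal, 6 of 8 for Wnt, 7 of 7 for FGF and 6 of 6 for LIF. In the lineage and housekeeping lists with more than 1 peak they were 5 of 7 for mesoderm, 1 of 8 for neuroectoderm, 1 of 4 for endoderm and 3 of 5 for ribosomal and housekeeping genes. In 9 of the 16 lists the lower limit of the share was above the 7.6% of all symbols, a count that tests nothing. These shares take no account of how much intergenic sequence lies nearest to each gene. The lists were assembled with earlier results of these data known, and 15 genes are in more than 1 list.

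**Figure D4:**
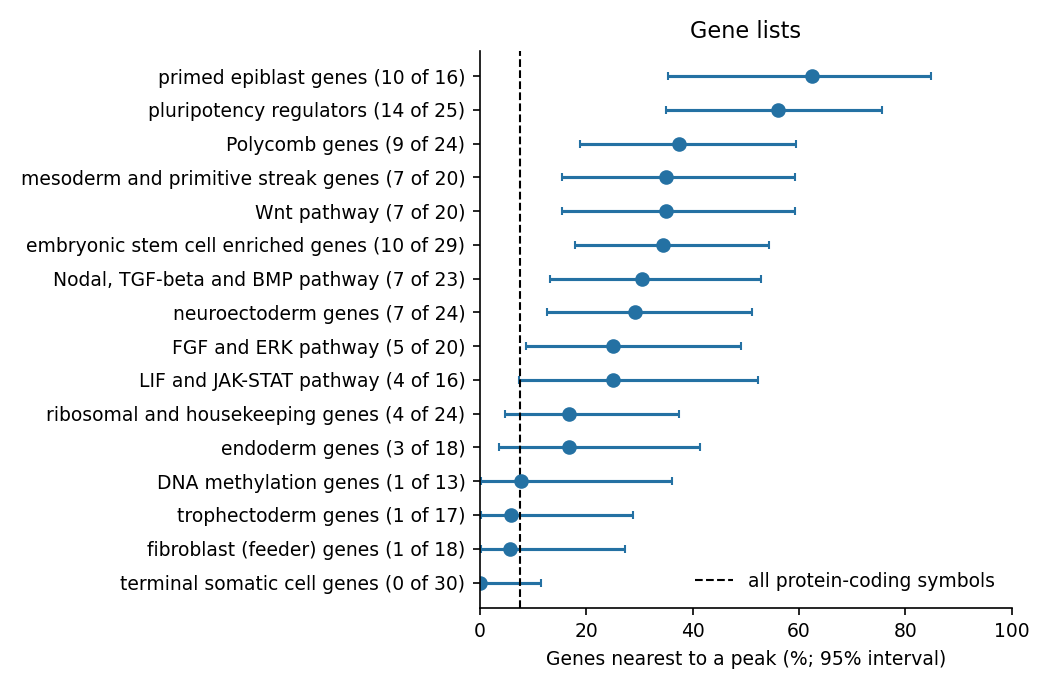
Percent of the genes of each list that were nearest to at least 1 intergenic peak (horizontal, points with 95% Clopper-Pearson intervals), with the share of all protein-coding symbols, 7.6%, as the dashed line. Primed epiblast genes and pluripotency regulators stand highest, at 62.5% and 56%, and terminal somatic cell genes are at 0 of 30.

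The genes nearest to the most intergenic peaks were not among these lists. Atg7, which encodes an enzyme of autophagy, was nearest to 19 and Hrh1, the histamine H1 receptor gene, to 17. These 36 peaks all lay in the interval between the 2 genes, chr6:114433291-114593148 on mm9, and at 159.9 kb it held no other peak. The strongest had a signal of 6.15 and ranked 738 among the intergenic peaks. Their median signal was 4.20 (range 2.89 to 6.15) against 5.4 in the 2003 other intergenic peaks. The median distance from each to its nearest other peak was 2.20 kb.

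The peaks of this interval differed from the rest in several measures at once. The median GC content of their 201-base windows was 60.9% (range 52.7 to 65.7%) against 46.3%, and that of the interval as a whole was 56.6%. Of the 48 intergenic peaks with GC content of at least 60%, 23 lay here. The composite, octamer, MORE and PORE elements were found in 0 of 36 windows, which allows a share of up to 9.74%. In neither replicate list were 15 of the 36, or 41.7% (25.5 to 59.2%), against 13.2% of the other intergenic peaks. Another 5 (13.9%, 4.67 to 29.5%) overlapped both, 15 the second list alone and 1 the first alone. Signal has to be kept in view here, since these peaks were weak. Of the lowest signal quintile of all intergenic peaks, with a median signal of 4.11, 40.9% were in neither list and 1.23% in both. The share in neither list was thus near that of other weak peaks. Between the same genes on mm10 (chr6:114483298-114643127, RefSeq), the deposited optimal list had 0 of its 3994 peaks and the conservative list 0 of its 2676. What share of equally weak peaks elsewhere those lists hold was not determined, so their absence cannot be read as particular to this interval. The part of GC content in the lower signal of these peaks, and the parts of GC content and signal in their replicate support, were not tested.

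**Figure D5:**
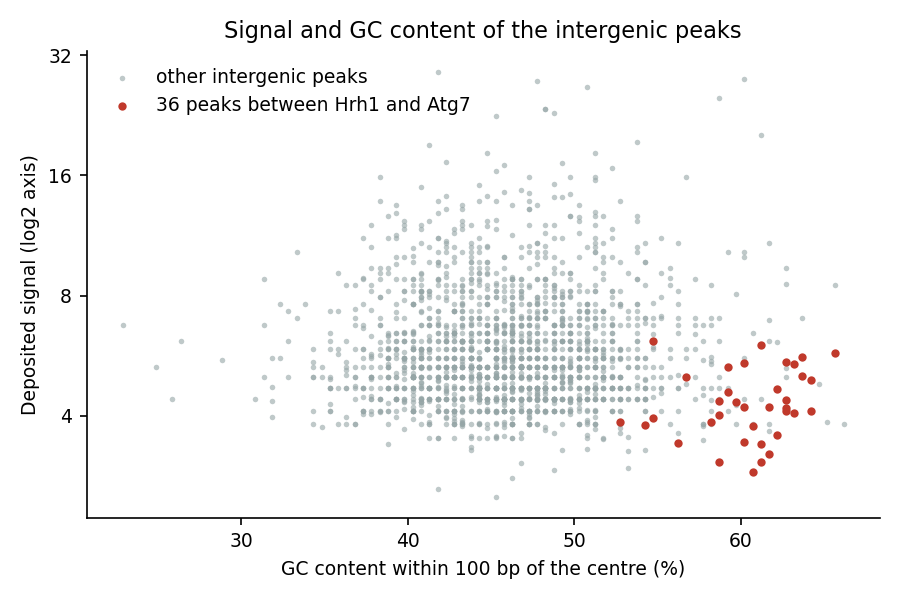
GC content within 100 bp of the centre (horizontal, %) against deposited signal (vertical, log2 axis) for the 2039 intergenic peaks, with the 36 peaks between Hrh1 and Atg7 in red. The red points lie at 52.7% GC or more and at signals of 6.15 or less.

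The interval weighed on counts by chromosome and spacing. Chromosome 6 had 151 intergenic peaks, 45.1% of its 335, and 38.5% without the 36. Another peak lay within 10 kb of 361 intergenic peaks (17.7%), against 14.9% of all 5515, and of 325 of 2003 (16.2%) without the interval. Of the remaining genes with many peaks, Vmn1r238 had 7 with signals from 4.39 to 8.07. Vmn2r-ps106, whose symbol is that of a pseudogene, had 6 with signals from 3.59 to 8.32. Both are named as vomeronasal receptors. Among the Vmn1r238 peaks, 4 within 4.19 kb had a median GC content of 58.2% and 0 composite matches. Sall1 had 5 peaks. Tle4, a corepressor gene, was 1 of 6 genes with 4 and had the strongest peak among them. Its peaks lay in a cluster 66.3 to 82.1 kb upstream, led by one of 8.86. When peaks at most 10 kb apart were joined, 1717 intergenic peaks stood alone, 115 runs held 2 and 16 held 3. A further 4 runs held 4 or more, and the largest, between Hrh1 and Atg7, held 31.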

How the data were processed

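ChIP-seq peaks of 2 replicates were used as deposited by the authors on mm9, as 1 list per replicate and 1 for the whole series. Per the file headers and labels, each peak carries a signal and a −log10 p-value made by the authors, none below 5.01 in the whole-series list. The aligner, caller, scaling and threshold are not given in the sources used here. The mm10 optimal and conservative lists served for positions only, and the relaxed lists were not used here. No column of another sample was present (0).

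Peak centres were compared with NCBIM37 and GENCODE M1 in Python 3.11.15 with pandas 2.3.3, numpy 2.4.6, scipy 1.17.1, pysam 0.24.0 and matplotlib 3.10.9. A grid of positions every 500 bp, without undetermined bases, gave the background for distance and side. Motifs were searched on both strands in 201-base windows and in windows 2 kb away, and the scripts were tested on simulated data. PORE was allowed 2 mismatches. Of 322 symbols in 16 gene lists, Oct6 and Sox1 did not match. With 1 group, no test was made and no replicate error can be given for values of the whole-series list.

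The peaks and gene lists were chosen with earlier results of these data known. Named genes were those nearest to the 25 highest signals (1 of them is not reported here), all pluripotency regulators nearest to a peak, up to 3 per other list, the 6 with most peaks (ties by highest signal) and 3 on each side of the limits. Bpifb9a, Casz1 and H2afb1 are named for their sequences only. The alternatives were another peak threshold, protein-coding annotation only, either replicate list alone, other overlap and motif settings and, chosen after seeing the data, leaving out the peaks between Hrh1 and Atg7.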

Additional observations from a re-analysis of the deposited data

How the results depend on the processing

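Of 37 values recomputed under an alternative, 22 kept to the 95% interval of the value reported (or, for the number of nearest genes, to within 1.5 times of it) and 15 did not. With −log10 p of at least 10, which left 1053 intergenic peaks, their share was 35.2%, the upstream share 70.6%, the median signal 6.75, the share in both replicate lists 40.4%, the composite share 10.4% and the number of nearest genes 931. With protein-coding annotation only, the intergenic share was 40.3% (2222 peaks, among them all 2039). The share in both lists was 14.9% with 50% reciprocal overlap and 14.6% with the replicate 2 list at the size of that of replicate 1. The composite share was 1.18% with 1 mismatch, 27.0% with 3 and 6.92% within 50 bp.

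With a single replicate list, the median distance ranged from 19.8 to 21.3 kb, the composite share from 8.04 to 12.6% and the nearest genes from 462 to 1896, where the low distance and gene number and the high composite share belong to the shorter replicate 1 list. The cause was not tested. Without the peaks between Hrh1 and Atg7 all 7 values stayed within these bounds, with 1687 genes, a median signal of 5.4 and a composite share of 8.84%. Signal was not recomputed per replicate, since the lists differ in scale. Shares from few peaks are the least certain, and depth is unknown. No paired analysis was possible because there is 1 group.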
